A study of Mus musculus with 24 samples.

Results

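The genes described are 33 mouse genes of complement, coagulation and fibrinolysis, chosen by name with earlier results of these data known. They were read from the count table in all 24 libraries. Their counts beside the shares of all tested genes are therefore descriptions. All 33 were found among the 53465 gene identifiers of the table, and 32 passed the filter on low counts. F10, the gene of coagulation factor X, had between 0 and 2 counts in each library and was not tested. Poly(A) RNA was measured in adipocytes that had been differentiated in culture from cells of the stromal vascular fraction (SVF), the non-fat cells released from adipose tissue. All cultures received a differentiation mix of dexamethasone, isobutylmethylxanthine and insulin and then insulin alone, in medium with fetal bovine serum (FBS). The cells came from epididymal (eWAT) or inguinal (iWAT) white adipose tissue. Control mice (Cont) are labelled Senp2flox/flox, so they also carry the floxed Senp2 allele, which encodes a SUMO protease. Knockout mice (aKO) are labelled Senp2flox/flox ; Adipoq Cre, in which Cre recombinase is driven by the promoter of the adiponectin gene and so acts in cells that have begun to make adiponectin. Only aKO mice are labelled with Cre, so effects of carrying Cre and of Senp2 loss cannot be told apart. Cells of each depot and genotype received siNS or siC/EBPb, an siRNA against the transcription factor C/EBPβ (gene Cebpb). This gave 8 groups of 3 libraries, and the labels state no age or sex of the mice. The labels do not say whether the 3 libraries of a group came from separate mice or cultures, so the p-values measure the spread between these libraries, which may be technical.

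Complement is a cascade of plasma proteins that marks and lyses targets. Its classical, lectin and alternative pathways converge on the cleavage of C3, which releases small peptides that act on receptors of immune cells and leads to the membrane attack complex. Coagulation starts when tissue factor meets factor VII and ends in a fibrin clot that factor XIII cross-links, while plasmin, made from plasminogen by the activators encoded by Plat and Plau, dissolves it. The liver makes most of these plasma proteins, but adipose tissue is a known source of several complement factors, among them C3 and adipsin (factor D, gene Cfd). C/EBPβ is a known regulator of acute-phase and inflammatory genes in liver and myeloid cells and acts early in adipocyte differentiation.

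The upstream sequences of 5 members are shown because these genes carry the main patterns below: C3 and C7 fell further with siC/EBPb in aKO than in Cont cultures, F13a1 showed the largest falls, F7 rose in aKO cultures and fell with siC/EBPb, and Plaur moved up with siC/EBPb in aKO cultures. Each line gives the 250 bases before a RefSeq transcription start (GRCm38.p6), 5′ to 3′ on the strand of the gene. Capitals mark the match to TTGCNNAA on either strand, a loose form of the motif that C/EBP proteins bind.
C3, chr17:57228137-57228386, minus strand: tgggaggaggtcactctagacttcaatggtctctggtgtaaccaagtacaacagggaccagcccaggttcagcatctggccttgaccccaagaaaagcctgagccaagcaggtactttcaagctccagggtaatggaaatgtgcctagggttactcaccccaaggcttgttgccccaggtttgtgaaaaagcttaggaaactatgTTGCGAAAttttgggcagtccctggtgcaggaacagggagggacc
C7, chr15:5063774-5064023, minus strand: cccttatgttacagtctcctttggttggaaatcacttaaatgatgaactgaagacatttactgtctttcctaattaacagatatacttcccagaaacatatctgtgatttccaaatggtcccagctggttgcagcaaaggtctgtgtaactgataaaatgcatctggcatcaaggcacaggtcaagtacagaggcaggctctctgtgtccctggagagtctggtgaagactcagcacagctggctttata
F13a1, chr13:37050245-37050494, minus strand: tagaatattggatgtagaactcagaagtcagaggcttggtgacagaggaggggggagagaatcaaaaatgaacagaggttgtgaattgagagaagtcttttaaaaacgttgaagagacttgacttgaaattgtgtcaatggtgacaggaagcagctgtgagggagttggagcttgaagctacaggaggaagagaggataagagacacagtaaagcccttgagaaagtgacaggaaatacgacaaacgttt
F7, chr8:13025784-13026033, plus strand: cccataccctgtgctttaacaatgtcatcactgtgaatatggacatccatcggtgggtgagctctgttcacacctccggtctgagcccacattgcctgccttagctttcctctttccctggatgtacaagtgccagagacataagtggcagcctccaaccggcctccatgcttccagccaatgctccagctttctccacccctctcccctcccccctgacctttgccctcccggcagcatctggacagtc
Plaur, chr7:24462233-24462482, plus strand: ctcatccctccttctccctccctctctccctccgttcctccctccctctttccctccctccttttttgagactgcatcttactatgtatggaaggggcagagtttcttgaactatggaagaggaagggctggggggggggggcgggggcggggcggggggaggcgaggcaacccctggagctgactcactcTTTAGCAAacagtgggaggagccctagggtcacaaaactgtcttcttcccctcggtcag
The C3 window held TTGCGAAA, which starts at position -45 from the transcription start, and the Plaur window held TTTAGCAA at position -59. The windows printed for C7, F13a1 and F7 held no match. RefSeq windows were found for 22 of the 33 members, and 4 of these (C1s1, C3, Procr and Plaur) held the loose motif on either strand, or 18.2%, against 10.84% of 27025 genes with windows of the same length. The strict motif TTGCGCAA was in 0 of the 22 and in 0.19% of all genes. A match is a description of the letters in these windows, and no match says only that the letters are not there.

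Library depth was even but for 1 library. The gene counts of 23 libraries summed to between 8435494 and 15388744 each, while iWAT aKO siNS replicate 2 held 603585, with 93.35% of its reads not aligned. That library was kept, and for members with few counts its values are coarse: it held 0 counts for C6, Cfi, Cd59a and F5. Levels below are CPM, that is, counts scaled to a common library size. The shallow library also differed at high levels. Its fibroblast and progenitor markers summed to 40629 CPM, beside 17422 and 16716 in replicates 1 and 3 of its group. Its macrophage and leukocyte markers summed to 890.0 CPM, beside 1595 and 1473. Means and ranges of iWAT aKO siNS include this library. Each log2 fold change is followed by ± its SE, and both come from a single edgeR quasi-likelihood (QL) model of the 24 libraries. The SE is derived from the test statistic and can be too small where a group holds few counts, as for F13a1 and F7 with siC/EBPb. Where a pair of values stands in brackets, the first is for eWAT and the second for iWAT. "Rose" and "fell" are used for an edgeR QL adjusted p under 0.05, adjusted over all 14785 tested genes. Cebpb fell in each of the 4 siC/EBPb comparisons, by 1.73 and 1.79 on the log2 scale in Cont and by 2.47 and 2.69 in aKO cultures of eWAT and iWAT. Senp2 lay between 43.7 and 57.4 CPM in the 24 libraries and passed the test in none of the 12 comparisons, but the table sums reads over the whole gene and over all cells of a culture, so this checks nothing about the genotype labels. All 7 adipocyte markers listed were detected, with Adipoq between 58.2 and 187 CPM.

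Markers of other cell types were also present, and some moved with the conditions. The summed level of 12 macrophage and leukocyte markers, led by the macrophage lysozyme gene Lyz2, was 1874 to 2591 CPM in eWAT Cont siNS and 1556 to 1635 in eWAT aKO siNS. With siC/EBPb it was 351 to 407 in eWAT Cont and 95.0 to 199 in eWAT aKO. The iWAT sums were 1796 to 2496 and 890.0 to 1595 in Cont and aKO with siNS, and 342 to 371 and 82.7 to 178 with siC/EBPb. The defining markers Adgre1, Cd68 and Lyz2 were above 0 in every library. The sum of 7 adipocyte markers was 1584 to 2058 and 2268 to 2446 CPM in eWAT Cont and aKO with siNS and 825 to 1155 and 572 to 1071 with siC/EBPb. In iWAT it was 1949 to 2633 and 2750.0 to 3689 with siNS and 1108 to 1456 and 699 to 1274 with siC/EBPb. Smooth muscle and pericyte markers summed to 2055 to 2411 CPM in eWAT Cont siNS and 3782 to 3818 in eWAT Cont siC/EBPb, and mesothelial markers to 25.7 to 26.2 in eWAT Cont siNS and 6.09 to 7.84 in eWAT aKO siNS. Hepatocyte markers summed to at most 0.271 CPM in any library. In RNA from whole cultures, fewer cells of a type and less RNA per cell cannot be told apart.

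**Figure D1:**
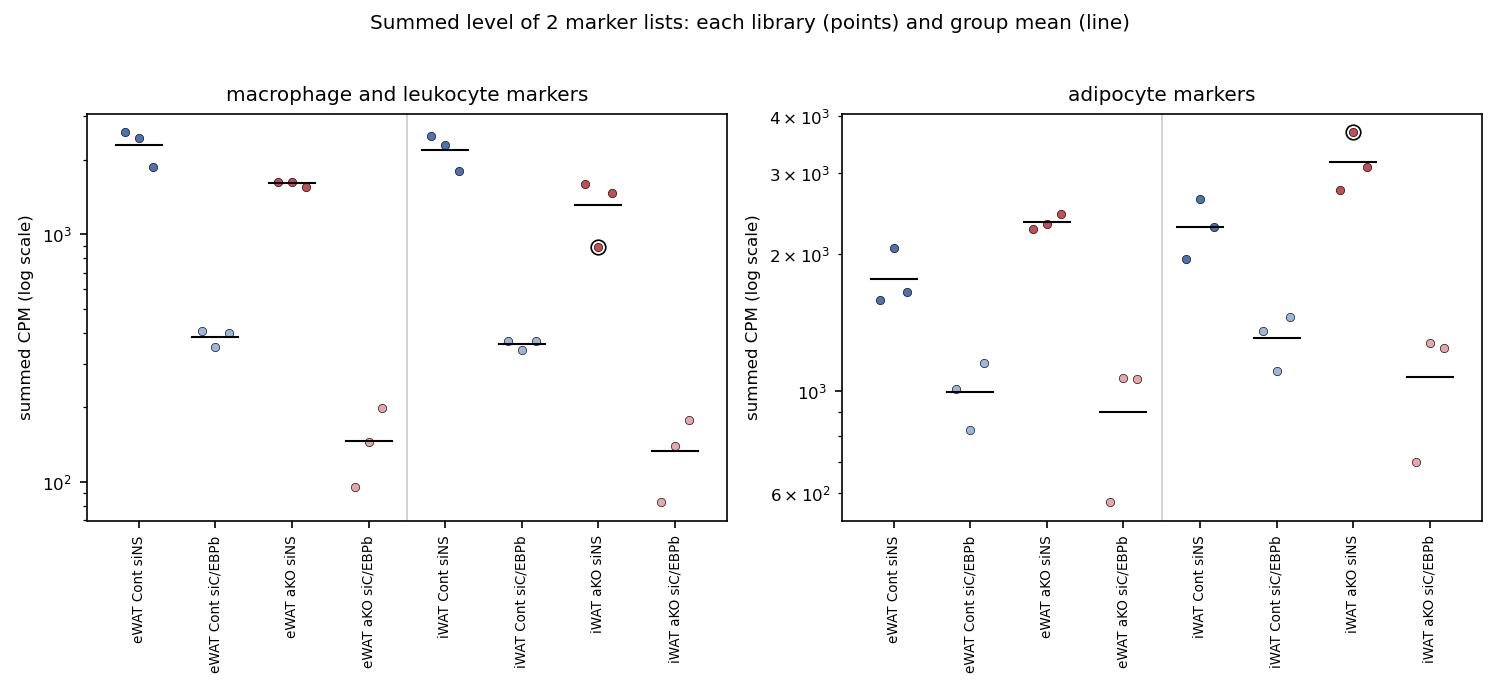
Summed CPM (log scale) of 12 macrophage and leukocyte markers (left) and 7 adipocyte markers (right) in each library (points, replicates 1 to 3 from left to right) of the 8 groups, with the group mean as a line; the ringed point is the shallow library. The macrophage sum lay at 82.7 to 407 CPM in the siC/EBPb libraries and at 890 to 2591 CPM in the siNS libraries.

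Per kilobase of exon, the most abundant member in eWAT Cont siNS was Serpinf1, which encodes the secreted serpin PEDF, at a level of 456 CPM per kb. It was followed by Serping1, the inhibitor of the C1 proteases, at 240 CPM per kb (239.8), and F3, which encodes tissue factor, at 219 CPM per kb. C4b, C3, C1s1 and Pros1 had levels between 89.7 and 99.7 CPM per kb. The lowest levels among the tested members were those of Vwf (0.384 CPM per kb), F5 (0.337 CPM per kb) and Cfb (0.172 CPM per kb). Serpinf1 lay between 902 and 1349 CPM over the 24 libraries, and F13a1 between 0.0655 and 45.8 CPM.

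The first comparison asks how aKO cultures differed from Cont with siNS. The classical pathway genes C1ra, C1s1 and C4b, and F7, the gene of coagulation factor VII, were higher in aKO cultures of both depots, while the thrombin-binding anticoagulant thrombomodulin, the transglutaminase subunit of factor XIII and a component of the membrane attack complex were lower. In eWAT 5 of 32 members rose and 11 fell, where 9.50% of all tested genes rose and 10.9% fell. In iWAT 4 rose and 8 fell, where 7.32% and 7.85% of all tested genes did. The median log2 fold change of the members was -0.17 in eWAT and -0.21 in iWAT, against 0.0036 and -0.00087 over all tested genes. C1ra, C1s1, C4b and F7 rose in both depots, which are 4 of the 5 rises in eWAT and 4 of the 4 in iWAT. C3ar1, C7, F13a1, F2r, F5, Plaur, Tfpi2 and Thbd fell in both, which are 8 of the 11 falls in eWAT and 8 of the 8 in iWAT. Shares of all tested genes called in both depots were not computed.

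C1ra (ENSMUSG00000055172, GRCm38 chromosome 6, 124512405 to 124523443, plus strand) encodes the protease C1r of the first complement component. It stood at 88.5, 83.1 and 76.6 CPM in eWAT Cont and at 127, 126 and 137 in eWAT aKO, and at 69.2, 55.8 and 64.8 in iWAT Cont and 99.9, 107 and 115 in iWAT aKO. Every aKO library lay above every Cont library of its depot, and the log2 fold changes were 0.65 ± 0.10 and 0.76 ± 0.11 (edgeR QL adjusted p = 1.31e-05 and 1.24e-05). C1s1 (ENSMUSG00000038521, GRCm38 chromosome 6, 124530345 to 124542359, minus strand), whose product C1s is activated by C1r and cleaves C4 and C2, was at 296, 313 and 296 CPM against 429, 418 and 440.4 in eWAT, and 246, 248 and 218 against 321, 379.7 and 361 in iWAT. Its groups did not overlap either (0.51 ± 0.10 and 0.56 ± 0.11; edgeR QL adjusted p = 0.000519 and 0.000505). C4b (ENSMUSG00000073418, GRCm38 chromosome 17, 34728380 to 34743882, minus strand), the substrate of C1s, was at 569, 568 and 567 CPM in eWAT Cont and 1005, 903 and 962 in eWAT aKO. The levels were 469.8, 472 and 408 in iWAT Cont and 737, 1206 and 787 in iWAT aKO, and the log2 fold changes were 0.75 ± 0.16 and 0.98 ± 0.16 (edgeR QL adjusted p = 0.00129 and 0.000172). C4b, C1ra, C1s1 and Cd59a each have a close paralog in the mouse genome, so reads may have been split between copies or left uncounted. Exons of C1s1 also overlap the gene model Gm16567 on the opposite strand over 18.4% of their length, so its counts are uncertain where strand was not used.

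The central component C3 (ENSMUSG00000024164, GRCm38 chromosome 17, 57203970 to 57228136, minus strand) did not follow them. It was at 506, 555 and 436 CPM in eWAT Cont and 450.2, 417 and 470.4 in eWAT aKO, and at 410.2, 463 and 336 in iWAT Cont and 342, 490.5 and 411 in iWAT aKO, with overlapping groups in both depots (log2 differences -0.16 ± 0.23 and -0.0054 ± 0.24; edgeR QL adjusted p = 0.697 and 0.994). Serping1, which blocks C1r and C1s, differed by 0.042 ± 0.12 and -0.10 ± 0.12 (edgeR QL adjusted p = 0.849 and 0.654). C7 (ENSMUSG00000079105, GRCm38 chromosome 15, 4988762 to 5063740, minus strand), which inserts into membranes as part of the attack complex, was at 25.7, 30.1 and 23.7 CPM in eWAT Cont and 9.08, 8.13 and 8.75 in eWAT aKO, and at 21.1, 24.7 and 18.4 in iWAT Cont and 6.97, 11.9 and 8.75 in iWAT aKO. All aKO libraries lay below all Cont libraries (-1.62 ± 0.13 and -1.42 ± 0.16; edgeR QL adjusted p = 7.94e-10 and 4.20e-07). The receptors of the peptides C3a and C5a, C3ar1 and C5ar1, had log2 differences of -0.68 ± 0.17 and -0.73 ± 0.18 and of -0.71 ± 0.20 and -0.67 ± 0.23. C3ar1 fell in both depots (edgeR QL adjusted p = 0.00615 and 0.0101) and C5ar1 in eWAT (edgeR QL adjusted p = 0.0181, and 0.0539 in iWAT). Of the low members, C6, which binds before C7 in the attack complex, and Cfi, the protease that inactivates C3b, fell in eWAT (-0.71 ± 0.22 and -0.60 ± 0.20), while Masp1, a protease of the lectin pathway, rose there (0.49 ± 0.16).

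**Figure D2:**
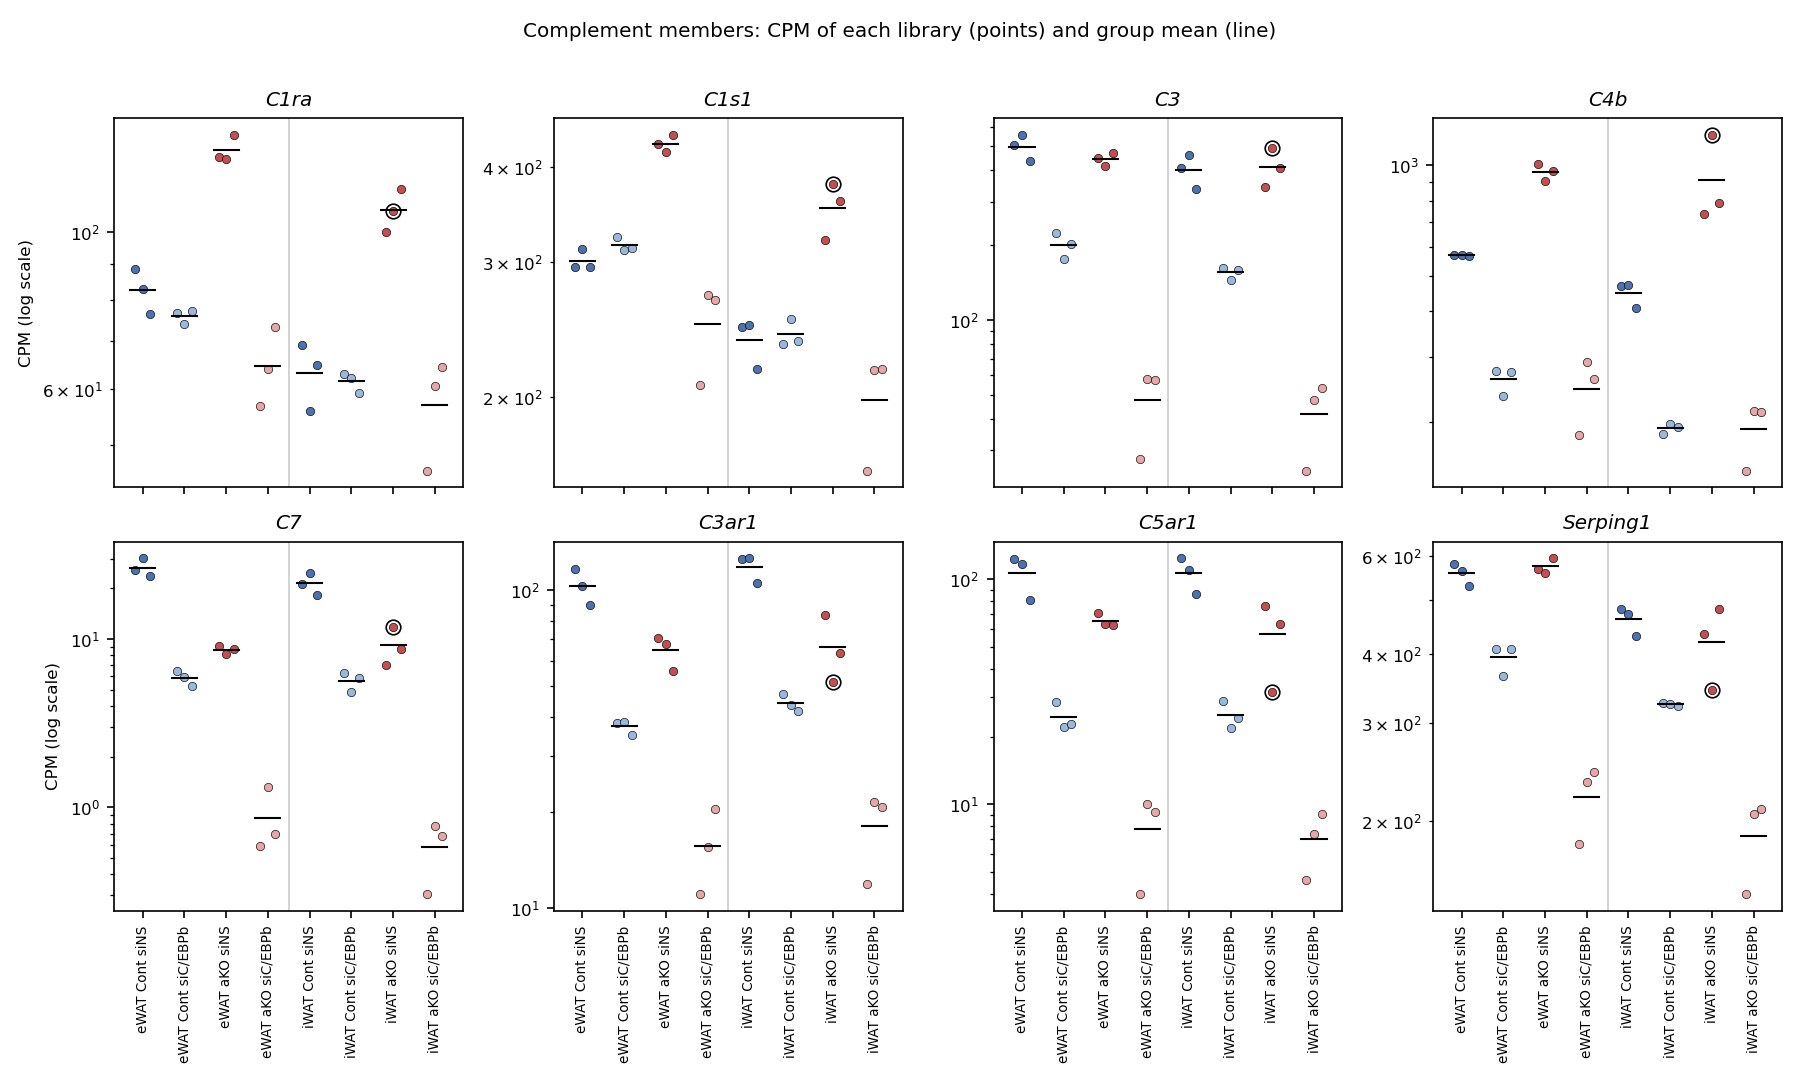
CPM (log scale) of 8 complement members in each library (points, replicates 1 to 3 from left to right) of the 8 groups, with the group mean as a line; the ringed point is the shallow library. C1ra, C1s1 and C4b were highest in aKO siNS, while C3, C7 and C5ar1 were lowest in aKO siC/EBPb, where C7 was at 1.33 CPM or less.

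Among coagulation genes, Thbd (ENSMUSG00000074743, GRCm38 chromosome 2, 148404466 to 148408188, minus strand), thrombomodulin, was at 37.5, 41.3 and 43.4 CPM in eWAT Cont and 12.1, 14.6 and 10.9 in eWAT aKO, and at 39.1, 36.7 and 41.9 in iWAT Cont and 10.9, 7.91 and 12.2 in iWAT aKO. No aKO library reached a Cont library (-1.70 ± 0.11 and -1.77 ± 0.14; edgeR QL adjusted p = 1.33e-11 and 3.16e-10). F13a1 (ENSMUSG00000039109, GRCm38 chromosome 13, 36867178 to 37050244, minus strand), the catalytic subunit of factor XIII, was at 41.3, 45.8 and 38.5 CPM in eWAT Cont and 9.62, 9.61 and 8.03 in eWAT aKO, and at 40.0, 44.3 and 33.7 in iWAT Cont and 8.35, 11.9 and 8.59 in iWAT aKO. Again the groups were apart (-2.21 ± 0.12 and -2.20 ± 0.14; edgeR QL adjusted p = 2.42e-13 and 1.55e-11). F7 (ENSMUSG00000031443, GRCm38 chromosome 8, 13026034 to 13035809, plus strand), which encodes factor VII, was the coagulation member that rose: it was at 5.00, 5.09 and 6.48 CPM in eWAT Cont and 10.5, 10.7 and 10.2 in eWAT aKO, and at 6.09, 4.95 and 5.89 in iWAT Cont and 7.74, 11.9 and 9.43 in iWAT aKO (0.93 ± 0.13 and 0.63 ± 0.16; edgeR QL adjusted p = 8.57e-06 and 0.00668). F5, the cofactor of factor Xa, rested on 35, 45 and 29 counts in eWAT Cont and on 11, 9 and 15 in eWAT aKO, and fell in both depots (-1.62 ± 0.31 and -1.62 ± 0.37). Tfpi2, a Kunitz-type inhibitor of plasmin and other proteases, fell (-0.65 ± 0.13 and -0.69 ± 0.15), as did the thrombin receptor F2r (-0.34 ± 0.091 and -0.42 ± 0.10). F3 was at 529.6, 515 and 616 CPM in eWAT Cont and 471, 508 and 498 in eWAT aKO, and its log2 differences of -0.17 ± 0.087 and -0.21 ± 0.09 did not pass (edgeR QL adjusted p = 0.189 and 0.118).

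Of the plasminogen activators, Plat and Plau differed by -0.022 ± 0.088 and 0.054 ± 0.10 and by -0.029 ± 0.10 and -0.071 ± 0.12, and neither passed the edgeR QL test (adjusted p between 0.760 and 0.901). Their partner Plaur (ENSMUSG00000046223, GRCm38 chromosome 7, 24462484 to 24475968, plus strand), the receptor that holds urokinase on the cell surface, was at 22.9, 19.7 and 18.9 CPM in eWAT Cont and 12.2, 12.3 and 15.4 in eWAT aKO, and at 21.8, 18.02 and 12.4 in iWAT Cont and 11.01, 13.8 and 9.96 in iWAT aKO. It fell in both depots, although the iWAT groups overlapped (-0.62 ± 0.13 and -0.74 ± 0.17; edgeR QL adjusted p = 0.00122 and 0.00229). The inhibitor Serpine2 (protease nexin-1) and the secreted serpin Serpinf1 did not pass (0.15 ± 0.094 and 0.10 ± 0.10, and 0.21 ± 0.082 and 0.075 ± 0.084).

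Of the calls in this comparison, 12 of 16 in eWAT and 6 of 12 in iWAT held in every alternative. Those lost when 1 library was left out (edgeR QL adjusted p) were, in eWAT, C6 (0.0509 to 0.128, without any 1 of aKO siNS replicates 1 and 2 and Cont siNS replicate 2), C5ar1 (0.0613 to 0.0866, without any 1 of Cont siNS replicates 1 and 2 and aKO siNS replicates 2 and 3), Cfi (0.0510 to 0.222, without any 1 of aKO siNS replicates 1 and 3 and Cont siNS replicates 2 and 3) and Masp1 (0.0507 to 0.111, without any 1 of Cont siNS replicates 1, 2 and 3 and aKO siNS replicates 2 and 3). In iWAT they were C3ar1 (0.104, without aKO siNS replicate 3), F5 (0.0537, without aKO siNS replicate 1) and F7 (0.130, without aKO siNS replicate 3). Fitted from their own 6 libraries, C1s1, F2r, F5, F7 and Plaur also missed the threshold in iWAT (edgeR QL adjusted p between 0.0634 and 0.226). Beside these values, 7 of 12 macrophage and leukocyte markers fell in eWAT and 5 in iWAT, and 4 and 3 of 8 endothelial markers, which include the member Vwf, did. So did 3 and 3 of 6 tested mesothelial markers and 2 and 4 of 8 smooth muscle and pericyte markers. In eWAT and iWAT 4 and 3 of 7 fibroblast and progenitor markers and 3 and 1 of 7 adipocyte markers rose. In these lists 1 and 1 endothelial markers rose, and 1 and 1 fibroblast and progenitor markers fell. Their part in the members' changes was not tested.

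The second comparison asks what siC/EBPb did in Cont cultures. Most members fell in both depots, among them C3, C4b, C7, F7, F13a1 and Plau, and Cd59a, F3 and Serpinf1 rose. In eWAT 20 of 32 fell and 3 rose, where 14.9% of all tested genes fell and 11.8% rose. In iWAT 22 fell and 3 rose, against 14.0% and 10.3% of all tested genes. The members' median was -0.54 and -0.56, against 0.023 and 0.0041 over all tested genes. The same 20 genes fell in both depots, and the share of all tested genes that did was not computed.

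F13a1 had the largest change. It was at 0.793, 0.198 and 0.466 CPM in eWAT Cont siC/EBPb and 0.475, 0.223 and 0.643 in iWAT, on 12, 3 and 7 and 5, 3 and 8 counts. Its siNS levels were the 33.7 to 45.8 CPM given above. The log2 fold changes were -6.40 and -6.46 (edgeR QL adjusted p = 5.80e-19 and 5.15e-18). No SE is given for them, because it would be too small at these counts. Other large falls were those of Cfp, which encodes properdin, the stabiliser of the alternative pathway convertase (-2.68 ± 0.25 and -2.77 ± 0.26), F5 (-2.79 ± 0.36 and -2.73 ± 0.38), F7 and C5ar1. F7 was at 0.860, 0.728 and 1.13 CPM in eWAT and 1.05, 1.19 and 1.04 in iWAT, below every siNS library (-2.59 ± 0.20 and -2.35 ± 0.21; edgeR QL adjusted p = 1.08e-10 and 2.21e-09). C5ar1 was at 122, 117 and 81.1 CPM in eWAT Cont siNS and 28.4, 22.1 and 22.7 with siC/EBPb, and at 124, 109 and 86.1 in iWAT with siNS and 28.9, 21.8 and 24.2 in iWAT with siC/EBPb (-2.13 ± 0.22 and -2.11 ± 0.23; edgeR QL adjusted p = 6.06e-07 and 1.27e-06).

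Of the complement cascade, C3 fell to 225, 177 and 202 CPM in eWAT and 162, 146 and 159 in iWAT (-1.31 ± 0.24 and -1.38 ± 0.24; edgeR QL adjusted p = 0.000331 and 0.000259). C4b fell to 275, 235 and 273 CPM in eWAT and 185, 198 and 194 in iWAT (-1.12 ± 0.16 and -1.23 ± 0.16), and C7 to 6.48, 5.95 and 5.26 CPM in eWAT and 6.28, 4.83 and 5.86 in iWAT (-2.17 ± 0.14 and -1.94 ± 0.15). The regulator Serping1 (ENSMUSG00000023224, GRCm38 chromosome 2, 84765387 to 84775444, minus strand) was at 580.0, 563 and 529.9 CPM in eWAT Cont siNS and 408, 365 and 408 with siC/EBPb, and at 482, 471 and 430.3 in iWAT with siNS and 326, 325 and 322 in iWAT with siC/EBPb (-0.50 ± 0.12 and -0.51 ± 0.12). C1ra and C1s1, by contrast, did not pass: C1ra was at 76.8, 74.2 and 77.3 CPM with siC/EBPb in eWAT and C1s1 at 324, 311 and 313, overlapping siNS (edgeR QL adjusted p between 0.401 and 0.908 in the 2 depots). C2, C6, Cfi, Masp1, C3ar1 and the scavenger collectin Colec12 fell in both depots, with log2 fold changes from -2.06 ± 0.29 (C6, iWAT) to -0.40 ± 0.12 (Colec12, iWAT). Cd59a, which encodes a membrane protein that blocks the attack complex, rose from 7.94, 6.38 and 7.19 to 10.2, 12.0 and 10.8 CPM in eWAT and from 8.47, 9.50 and 9.02 to 15.8, 14.5 and 14.4 in iWAT (0.62 ± 0.16 and 0.73 ± 0.16; edgeR QL adjusted p = 0.00385 and 0.00103).

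Of the coagulation inhibitors and fibrinolysis genes, Pros1, which encodes protein S, a cofactor of activated protein C, fell by 0.58 and 0.52 on the log2 scale, Plat by 0.33 and 0.34, Plau by 0.71 and 0.72, and Tfpi2 by 1.00 and 0.98. Vwf, the von Willebrand factor gene of endothelium and platelets, fell at low levels (-1.07 ± 0.27 and -1.09 ± 0.29). F3 rose from 529.6, 515 and 616 to 683, 716 and 691 CPM in eWAT and from 492, 468 and 556 to 630.0, 676 and 638 in iWAT (0.33 ± 0.087 and 0.36 ± 0.087; edgeR QL adjusted p = 0.00457 and 0.00262). Thbd, which had the largest genotype difference with siNS after F13a1, was -0.12 ± 0.10 and -0.029 ± 0.10 here (edgeR QL adjusted p = 0.408 and 0.885), and Tfpi, the main inhibitor of the tissue factor pathway, was -0.16 ± 0.092 and -0.15 ± 0.10 (edgeR QL adjusted p = 0.229 and 0.275). Procr and Plaur fell in iWAT, and in eWAT they were -0.091 ± 0.12 and -0.22 ± 0.13.

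**Figure D3:**
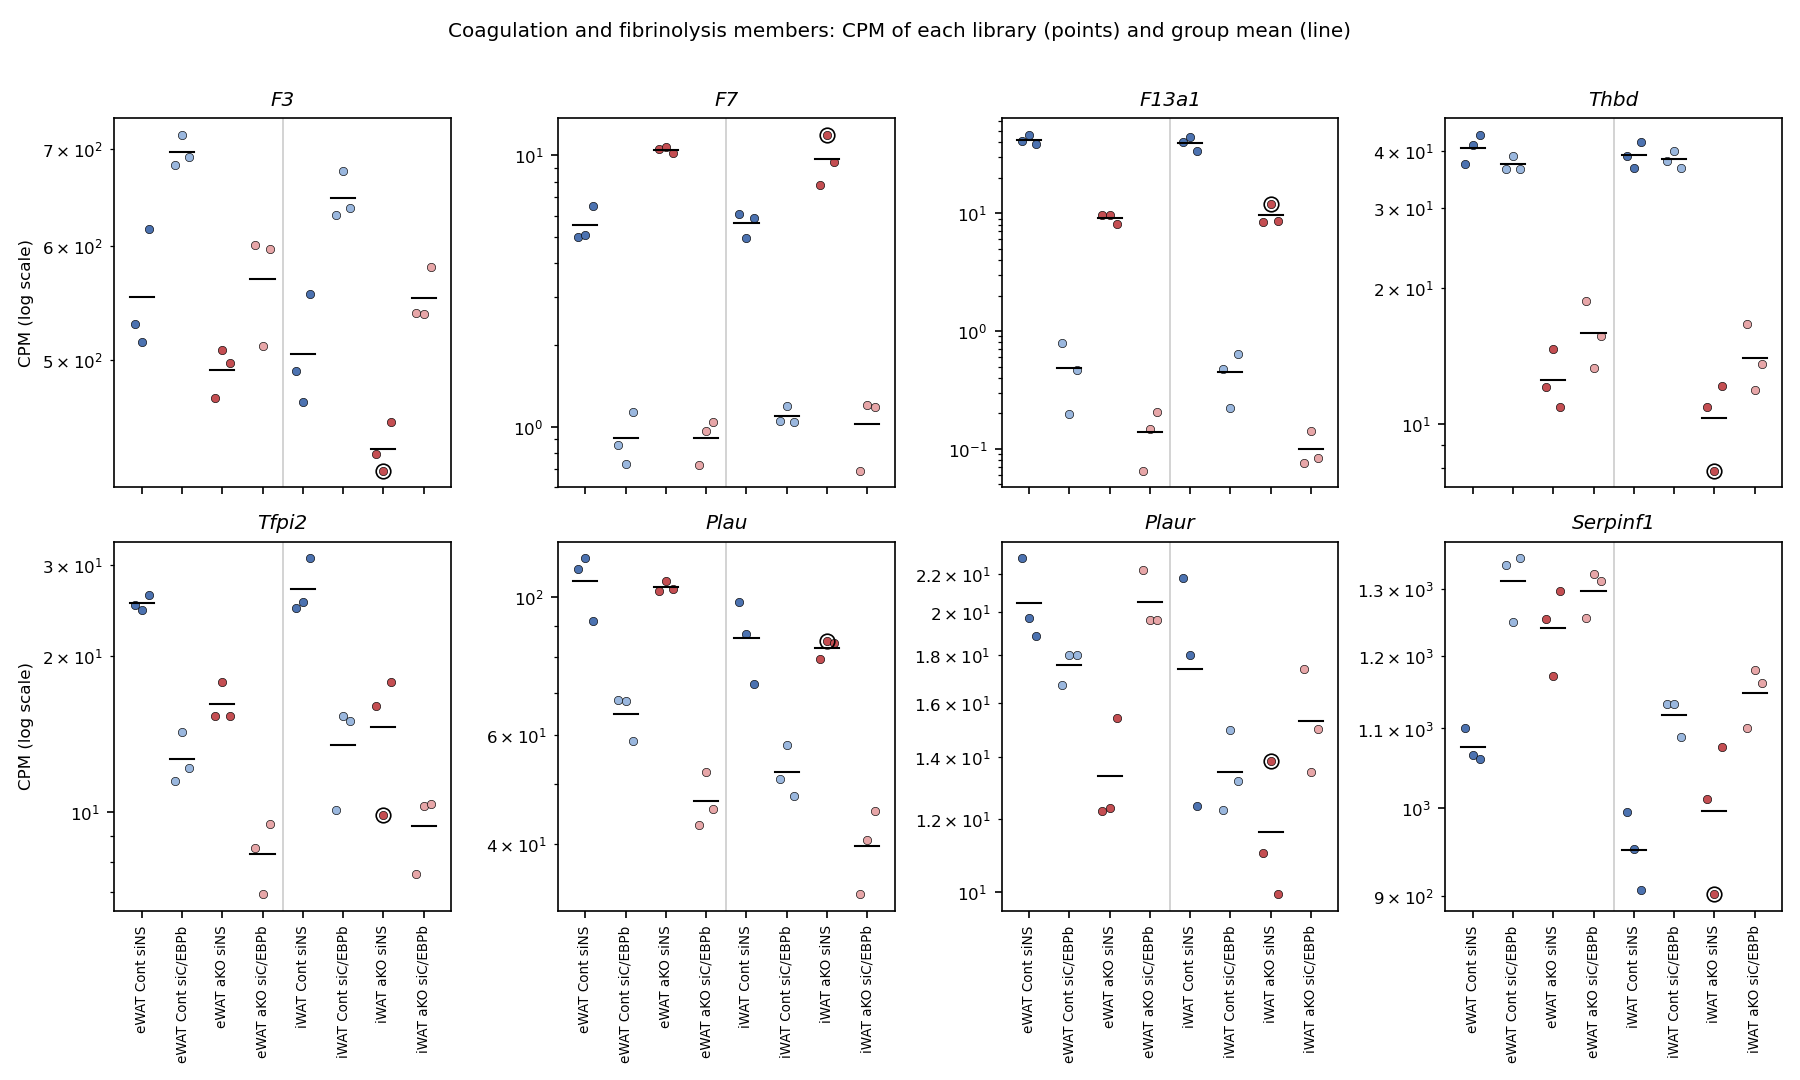
CPM (log scale) of 8 coagulation and fibrinolysis members in each library (points, replicates 1 to 3 from left to right) of the 8 groups, with the group mean as a line; the ringed point is the shallow library. F13a1 was at 33.7 to 45.8 CPM in Cont siNS and below 1 CPM (0.0655 to 0.793) in every siC/EBPb library, while Thbd was lower in aKO than in Cont whichever siRNA was used.

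Of the calls with siC/EBPb in Cont, 22 of 23 in eWAT and 19 of 25 in iWAT held in every alternative. In eWAT the exception was Serpinf1, at an edgeR QL adjusted p of 0.0881 without the filter on low counts. In iWAT the calls lost without 1 library (edgeR QL adjusted p) were C2 (0.0517 to 0.0908, without any 1 of Cont siNS replicates 2 and 3 and Cont siC/EBPb replicates 2 and 3), Colec12 (0.0532, without Cont siNS replicate 1), Procr (0.0584 to 0.342, without any 1 of Cont siNS replicates 1 and 3 and Cont siC/EBPb replicates 1 and 3), Plaur (0.117 to 0.447, without any 1 of Cont siNS replicates 1 and 2 and Cont siC/EBPb replicates 1 and 3) and Serpinf1 (0.0553 to 0.135, without any 1 of Cont siNS replicates 1, 2 and 3 and Cont siC/EBPb replicates 1, 2 and 3). Procr and Plaur then moved to between -0.53 and -0.20 and between -0.55 and -0.19, and Vwf had a DESeq2 adjusted p of 0.0510. All 12 macrophage and leukocyte markers fell in both depots (median -1.80 and -1.98), while 1 of 7 adipocyte markers fell. In eWAT and iWAT 6 and 6 of 8 smooth muscle and pericyte markers, 3 and 3 of 6 mesothelial markers and 2 and 2 of 8 endothelial markers rose. In the same lists 1 and 1 smooth muscle and pericyte, 1 and 2 mesothelial and 1 and 1 endothelial markers fell. Of 7 fibroblast and progenitor markers 2 and 3 fell and 0 rose. Their part in the changes of the members was not tested.

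The third comparison repeats the siRNA contrast in aKO cultures. C1ra and C1s1 fell here in both depots, and Plaur rose. In eWAT 24 of 32 fell and 3 rose, where 19.1% of all tested genes fell and 16.6% rose. In iWAT 24 fell and 4 rose, where 17.7% and 13.6% of all tested genes did. The medians were -1.07 and -0.98, against -0.0011 and -0.0062 over all tested genes. Over the 4 siRNA comparisons 20 members fell in each, Cd59a rose in each, and Tfpi passed in none. How many of all tested genes did so in all 4 was not computed.

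C3 fell to 27.5, 58.0 and 57.3 CPM in eWAT aKO siC/EBPb and to 24.8, 47.9 and 53.2 in iWAT (-3.23 ± 0.26 and -3.26 ± 0.27; edgeR QL adjusted p = 1.14e-08 and 2.31e-08). These 6 values lay below every other library of the study for C3, and the lowest in each depot was replicate 1. C4b fell to 185, 292 and 261 CPM in eWAT and 147, 213 and 213 in iWAT (-1.96 ± 0.16 and -2.21 ± 0.17), and C7 to 0.590, 1.33 and 0.692 CPM in eWAT and 0.306, 0.775 and 0.674 in iWAT (-3.32 ± 0.23 and -3.75 ± 0.28). C5ar1 was at 70.5, 63.2 and 62.7 CPM with siNS and 4.00, 10.0 and 9.27 with siC/EBPb in eWAT, and at 76.2, 31.6 and 63.4 in iWAT with siNS and 4.59, 7.40 and 9.01 in iWAT with siC/EBPb (-3.09 ± 0.26 and -3.27 ± 0.29). Cfp fell to 2.82, 4.21 and 4.43 CPM in eWAT and 1.76, 3.81 and 4.38 in iWAT (-3.81 ± 0.30 and -3.94 ± 0.34). C1ra fell to 56.7, 64.0 and 73.3 CPM in eWAT and 46.0, 60.6 and 64.3 in iWAT (-1.01 ± 0.10 and -0.92 ± 0.11; edgeR QL adjusted p = 3.92e-09 and 1.46e-07), C1s1 to 207, 272 and 268 CPM in eWAT and 160.0, 217 and 218 in iWAT (-0.79 ± 0.10 and -0.82 ± 0.11), and Serping1 to 182, 235 and 245 CPM in eWAT and 148, 206 and 211 in iWAT (-1.38 ± 0.12 and -1.19 ± 0.12).

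F13a1 reached 0.0655, 0.148 and 0.208 CPM in eWAT and 0.0765, 0.141 and 0.0842 in iWAT, and fell in both depots. These levels rest on 1, 2 and 3 counts in eWAT and 1, 2 and 1 in iWAT. F7 fell to 0.721, 0.960 and 1.04 CPM in eWAT and 0.689, 1.20 and 1.18 in iWAT (-3.53 ± 0.18 and -3.08 ± 0.20; edgeR QL adjusted p = 3.09e-14 and 4.83e-12). F5 rested on 1, 1 and 3 counts in eWAT and on 0, 0 and 2 in iWAT, and Cfb, the protease of the alternative pathway, on 0, 4 and 2 and on 1, 1 and 1, so no fold is given for F13a1, F5 or Cfb here. Plaur rose to 22.2, 19.7 and 19.6 CPM in eWAT and 17.4, 13.5 and 15.0 in iWAT (0.62 ± 0.13 and 0.53 ± 0.17; edgeR QL adjusted p = 0.000534 and 0.0152), although in iWAT 1 siC/EBPb library lay below the siNS value of the shallow library. Plau fell (-1.15 ± 0.11 and -1.05 ± 0.12), Plat fell (-0.35 ± 0.089 and -0.38 ± 0.10) and Cd59a rose (0.89 ± 0.16 and 0.91 ± 0.17). Thbd rose in eWAT with overlapping groups (0.35 ± 0.12) and was 0.29 ± 0.15 in iWAT.

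In aKO cultures 25 of 27 calls in eWAT and 20 of 28 in iWAT held in every alternative. Calls lost without 1 library (edgeR QL adjusted p) were, in eWAT, Thbd (0.0549 to 0.289, without any 1 of aKO siNS replicates 1 and 3 and aKO siC/EBPb replicates 1 and 3) and Serpine2 (0.0660 to 0.0733, without any 1 of aKO siC/EBPb replicate 1 and aKO siNS replicate 3). In iWAT they were Cfb (0.113, without aKO siNS replicate 1), Colec12 (0.0573, without aKO siNS replicate 3), F2r (0.0649 to 0.150, without any 1 of aKO siNS replicate 1 and aKO siC/EBPb replicates 1 and 2), Plaur (0.0844 to 0.132, without any 1 of aKO siC/EBPb replicate 1 and aKO siNS replicate 3) and Serpine2 (0.0761 to 0.447, without any 1 of aKO siNS replicates 1 and 3 and aKO siC/EBPb replicates 1 and 2). Fitted from their own 6 libraries, F3, Pros1 and Plat also missed the threshold in iWAT (edgeR QL adjusted p between 0.0916 and 0.144). Colec12 and F2r missed it in that fit too (edgeR QL adjusted p = 0.307 and 0.317), as did Serpine2. Over the left-out libraries Thbd in eWAT ranged from 0.20 to 0.46 and Serpine2 in iWAT from -0.38 to -0.13. All 12 macrophage and leukocyte markers fell in both depots (median -2.75 and -2.71), and 6 and 5 of 7 adipocyte markers fell. In eWAT and iWAT 6 and 5 of 8 smooth muscle and pericyte markers rose and 4 and 5 of 7 fibroblast and progenitor markers fell. In iWAT 1 smooth muscle and pericyte marker fell. Of 8 endothelial markers 1 and 1 rose and 1 and 2 fell. Their part was not tested.

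**Figure D4:**
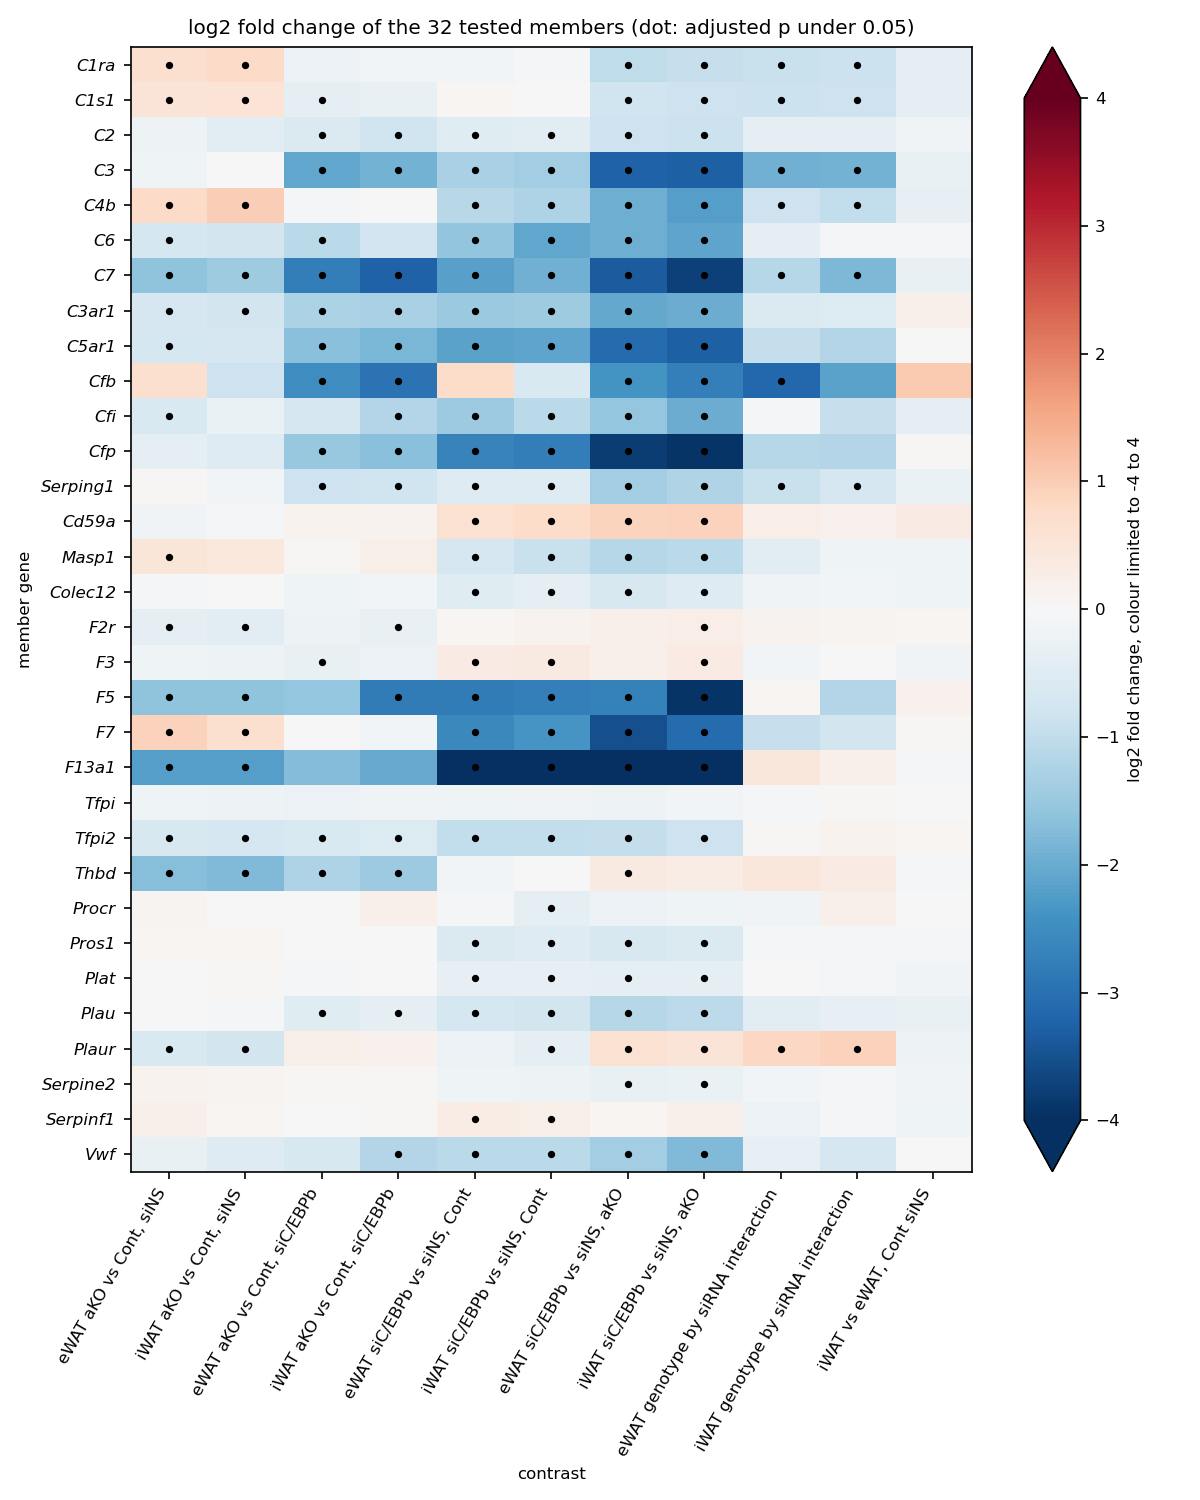
log2 fold change (colour, limited to -4 to 4) of the 32 tested members (rows) in 11 comparisons (columns), with a dot where the edgeR QL adjusted p is under 0.05. The 4 siRNA columns hold the most dots, 23, 25, 27 and 28, and the column comparing depots holds 0.

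The fourth comparison sets aKO against Cont when both received siC/EBPb. No member was called higher in aKO cultures, and C3, C7, Serping1, C5ar1 and Cfp were lower in both depots. C4b and F7 did not pass. Of 32 members 14 fell in eWAT and 15 in iWAT, where 6.87% and 6.51% of all tested genes fell. None rose by the edgeR QL test in either depot, where 3.90% and 3.52% of all tested genes rose, shares that are small for a list of 32. None was higher at an unadjusted edgeR QL p under 0.05, a level that 3186 and 3028 of all 14785 tested genes passed in either direction. DESeq2 and voom also called 0 members higher. The falls shared by both depots were in 11 genes, C2, C3, C3ar1, C5ar1, C7, Cfb, Cfp, Plau, Serping1, Tfpi2 and Thbd. A share of all tested genes falling in both depots was not computed. This comparison and that of siRNAs in aKO cultures use the same aKO siC/EBPb libraries.

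From the levels above, C3 was -2.08 ± 0.25 and -1.89 ± 0.26 (edgeR QL adjusted p = 1.70e-05 and 5.89e-05) and C7 -2.77 ± 0.25 and -3.24 ± 0.28 (edgeR QL adjusted p = 7.59e-09 and 7.60e-09). Serping1 was -0.84 ± 0.12 and -0.79 ± 0.12, C3ar1 -1.25 ± 0.20 and -1.29 ± 0.20 and C5ar1 -1.66 ± 0.29 and -1.83 ± 0.30. C4b was -0.088 ± 0.16 and -0.0069 ± 0.16 and F7 -0.0064 ± 0.29 and -0.10 ± 0.29, with overlapping groups (edgeR QL adjusted p between 0.828 and 0.995). Thbd, lower in aKO with siNS, was lower here too: it was at 36.6, 39.1 and 36.6 CPM in eWAT Cont siC/EBPb and 18.7, 13.3 and 15.6 in eWAT aKO siC/EBPb, and at 38.1, 40.1 and 36.8 in iWAT Cont and 16.6, 11.9 and 13.6 in iWAT aKO (-1.23 ± 0.11 and -1.45 ± 0.11; edgeR QL adjusted p = 7.59e-09 and 1.42e-09). Cfb had 15, 11 and 11 counts in eWAT Cont siC/EBPb and 11, 6 and 7 in iWAT, beside the 0 to 4 counts of the aKO libraries. Its exons overlap the gene model Gm20547 over 79.5% of their length, as those of C2 do over 42.8%, so counts of both are uncertain.

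In this comparison 7 of 14 and 7 of 15 calls held in every alternative. Without eWAT aKO siC/EBPb replicate 1 the count in eWAT was 9, and without iWAT aKO siC/EBPb replicate 1 that in iWAT was 9. Of all tested genes 7.29% in place of 10.8% and 6.25% in place of 10.0% were then called. The calls lost without 1 library (edgeR QL adjusted p) were, in eWAT, C1s1 (0.0603 to 0.224, without any 1 of Cont siC/EBPb replicates 1, 2 and 3 and aKO siC/EBPb replicate 1), C2 (0.0977, without aKO siC/EBPb replicate 1), C6 (0.0509 to 0.253, without any 1 of aKO siC/EBPb replicates 1 and 2 and Cont siC/EBPb replicates 2 and 3), Cfb (0.0560, without aKO siC/EBPb replicate 1), Cfp (0.0605, without aKO siC/EBPb replicate 1), F3 (0.0628 to 0.175, without any 1 of Cont siC/EBPb replicates 1, 2 and 3 and aKO siC/EBPb replicate 2) and Tfpi2 (0.0501 to 0.0581, without any 1 of Cont siC/EBPb replicate 2 and aKO siC/EBPb replicate 2). In iWAT they were Cfb (0.0757, without Cont siC/EBPb replicate 1), Cfi (0.0506 to 0.0823, without any 1 of aKO siC/EBPb replicates 1 and 3 and Cont siC/EBPb replicate 3), Cfp (0.0638, without aKO siC/EBPb replicate 1), F2r (0.0656 to 0.140, without any 1 of Cont siC/EBPb replicates 1, 2 and 3 and aKO siC/EBPb replicates 2 and 3), F5 (0.0529 to 0.158, without any 1 of Cont siC/EBPb replicates 1, 2 and 3 and aKO siC/EBPb replicates 1 and 2), Tfpi2 (0.129 to 0.174, without any 1 of aKO siC/EBPb replicate 1 and Cont siC/EBPb replicates 2 and 3), Plau (0.164 to 0.206, without any 1 of aKO siC/EBPb replicate 1 and Cont siC/EBPb replicate 2) and Vwf (0.0730 to 0.172, without any 1 of aKO siC/EBPb replicates 1, 2 and 3 and Cont siC/EBPb replicates 2 and 3). C1s1 in eWAT then lay between -0.41 and -0.23. Cebpb itself was lower in aKO than in Cont with siC/EBPb (-0.88 ± 0.17 and -0.97 ± 0.19; edgeR QL adjusted p = 0.00134 and 0.00155), and 12 and 11 of 12 macrophage and leukocyte markers fell. So did 5 and 4 of 6 mesothelial and 3 and 5 of 8 endothelial markers. Their part was not tested.

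Whether siC/EBPb acted differently in the 2 genotypes was tested as an interaction, the log2 siRNA effect in aKO minus that in Cont. C1ra, C1s1, C4b, C3, C7 and Serping1 had a more negative siRNA effect in aKO than in Cont cultures of both depots, and Plaur a more positive one. In eWAT 7 of 32 members had a negative interaction and 1 a positive one, where 3.33% and 3.01% of all tested genes did. In iWAT the counts were 6 and 1, where 2.19% and 1.32% of all tested genes did. The largest that rested on more than a few counts was that of C3, -1.92 ± 0.34 and -1.88 ± 0.35 (edgeR QL adjusted p = 0.00220 and 0.00445), so the fall with siC/EBPb was larger in aKO by that amount. C7 had -1.15 ± 0.30 and -1.81 ± 0.36 (edgeR QL adjusted p = 0.0195 and 0.00301). C1ra and C1s1, without a called siRNA effect in Cont, had -0.89 ± 0.14 and -0.87 ± 0.15, and -0.85 ± 0.14 and -0.84 ± 0.15 (edgeR QL adjusted p = 0.000199 and 0.000756 for C1ra and 0.000446 and 0.00101 for C1s1). C4b had -0.84 ± 0.22 and -0.99 ± 0.23 and Serping1 -0.88 ± 0.16 and -0.69 ± 0.17 (edgeR QL adjusted p = 0.0270 and 0.0153 for C4b and 0.00130 and 0.0174 for Serping1). Plaur had 0.84 ± 0.19 and 0.92 ± 0.22 (edgeR QL adjusted p = 0.00621 and 0.0152). The target Cebpb changed by -1.73 and -1.79 in Cont and by -2.47 and -2.69 in aKO cultures. Its own interaction was -0.74 ± 0.22 and -0.90 ± 0.25 and did not pass (edgeR QL adjusted p = 0.0562 and 0.0522). The part of this difference in knockdown in the members' interactions was not tested.

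The remaining members did not pass in either depot, apart from Cfb in eWAT (-3.13 ± 0.78, edgeR QL adjusted p = 0.0153, at 0 to 15 counts a library). The size of the Cfb value is uncertain at such counts and with exons that overlap Gm20547. C5ar1 and Cfp, for example, fell in both genotypes and their interactions of -0.96 ± 0.35 and -1.16 ± 0.38 and of -1.13 ± 0.42 and -1.16 ± 0.47 were not past the threshold (edgeR QL adjusted p between 0.106 and 0.203). F7 had -0.93 ± 0.32 and -0.73 ± 0.33 (edgeR QL adjusted p = 0.0795 and 0.275). Of the calls, 5 of 8 in eWAT and 4 of 7 in iWAT held in every alternative. Those lost without 1 library (edgeR QL adjusted p) were, in eWAT, C4b (0.0515 to 0.0760, without any 1 of Cont siNS replicates 1 and 3, Cont siC/EBPb replicates 1 and 3, aKO siNS replicates 1 and 3 and aKO siC/EBPb replicate 1), C7 (0.0540 to 0.134, without any 1 of Cont siC/EBPb replicate 1 and aKO siC/EBPb replicates 1 and 3) and Cfb (0.0681, without aKO siC/EBPb replicate 1). In iWAT they were Serping1 (0.0567 to 0.0850, without any 1 of aKO siC/EBPb replicate 1, Cont siNS replicate 3 and aKO siNS replicate 3) and Plaur (0.0599 to 0.0932, without any 1 of Cont siNS replicate 1, aKO siC/EBPb replicate 1 and aKO siNS replicate 3), and with the 12 iWAT libraries alone C4b was at 0.0513. In that fit of the iWAT libraries Serping1 was at 0.102, and Plaur missed the threshold too. Without eWAT aKO siC/EBPb replicate 1 the eWAT count was 5. Among all genes the eWAT count of 938 changes became 1677 without the shallow library and 434 without eWAT aKO siC/EBPb replicate 1. The iWAT count of 519 became 939 without the shallow library and was 291 to 563 without any other iWAT library.

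**Figure D5:**
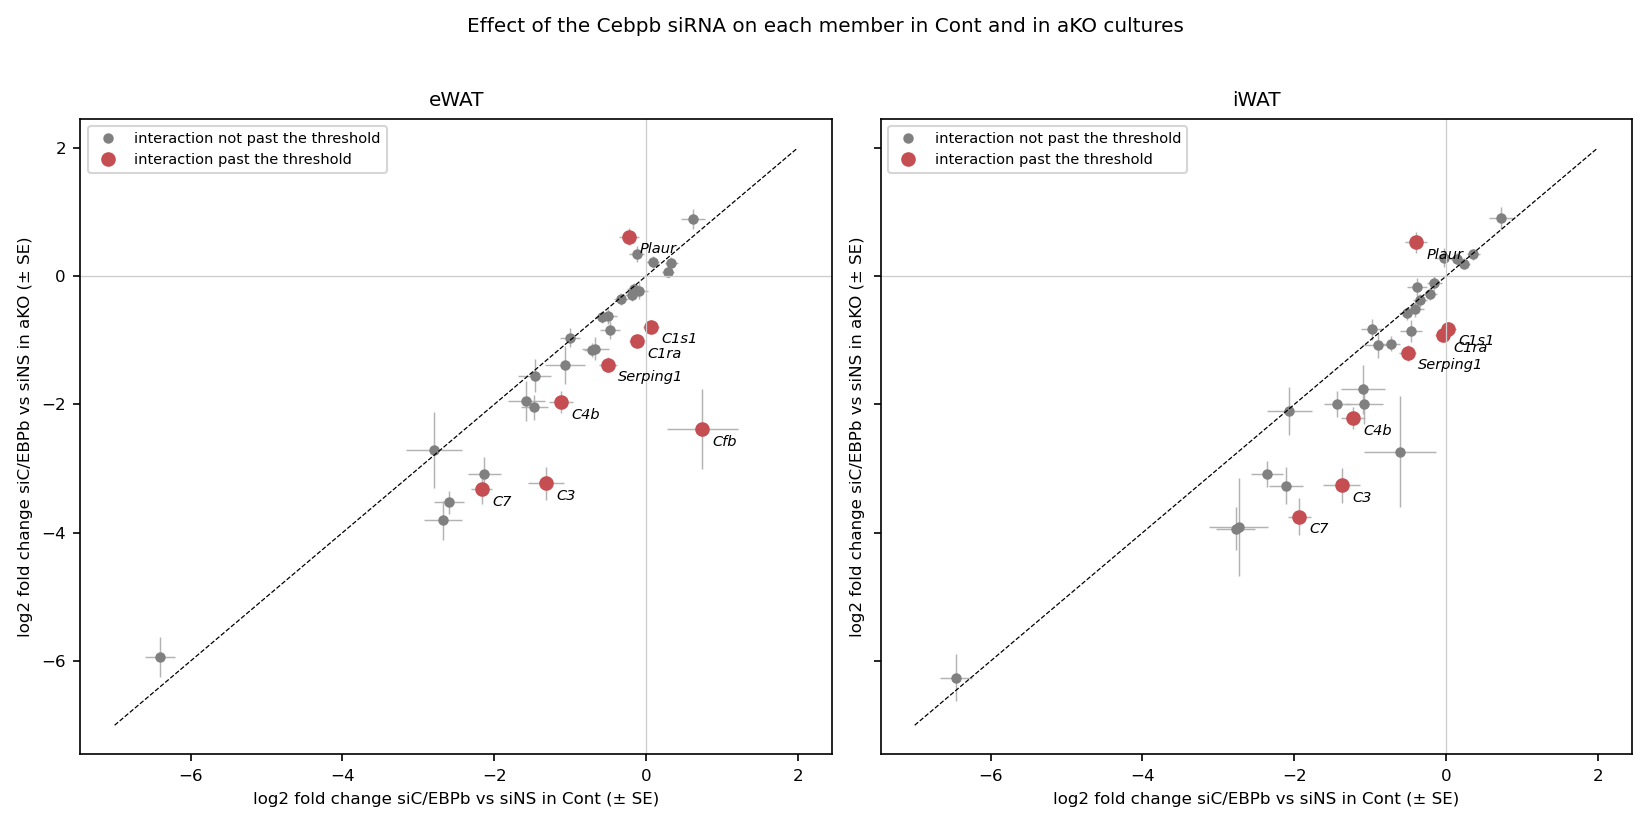
log2 fold change of siC/EBPb against siNS in Cont (horizontal axis) and in aKO (vertical axis) for the 32 tested members, with SE bars, in eWAT (left) and iWAT (right); the dashed line marks equal effects and larger red points passed the interaction test. C3 lies at -1.31 and -3.23 in eWAT and -1.38 and -3.26 in iWAT, and Plaur lies above the line in both.

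The last comparison is between depots. With siNS in Cont cultures 0 of 32 members passed the edgeR QL test between iWAT and eWAT, where 0.690% of all tested genes were higher in iWAT and 0.514% lower. At an unadjusted edgeR QL p under 0.05, 1 member was higher and 7 lower in iWAT, where 2233 of all 14785 tested genes passed that level in either direction. DESeq2 called 0 members and voom 3. Same-numbered Cont siNS libraries of the 2 depots deviated together. With such pairs in all groups as a block, 3 members were lower in iWAT: C1ra (-0.39, edgeR QL adjusted p = 0.0176), C1s1 (-0.35, 0.0375) and Plau (-0.31, 0.0484). Without the block they were -0.39 ± 0.10, -0.34 ± 0.10 and -0.30 ± 0.11 (edgeR QL adjusted p = 0.0528, 0.0919 and 0.177). Without the shallow library, which is not in this comparison but enters the fit, 3 members passed, and among all genes 1123 in place of 178. Leaving out 1 of the 6 compared libraries gave between 23 (without iWAT Cont siNS replicate 3) and 203 genes (without iWAT Cont siNS replicate 1), with 39, 48, 58 and 88 without eWAT Cont siNS replicates 3 and 2, iWAT Cont siNS replicate 2 and eWAT Cont siNS replicate 1. The genotype effect with siNS did not differ between depots for any member by the edgeR QL test, where 0.00% of all tested genes were higher and 0.00% lower. At an unadjusted edgeR QL p under 0.05 there were 0 members, beside 415 of all 14785 tested genes. DESeq2 and voom called 0 members.

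Beyond the 33 members, 78 further genes of these cascades were listed, of which 41 were tested. With siNS, 6 rose and 13 fell in eWAT aKO against Cont, and 3 and 12 in iWAT, where 9.50% and 10.9% of all tested genes rose and fell in eWAT and 7.32% and 7.85% in iWAT. The largest were Clec3b, which encodes the plasminogen-binding protein tetranectin (2.78 ± 0.25 and 2.75 ± 0.30), Serpinb2, an inhibitor of plasminogen activators (-2.16 ± 0.20 and -2.34 ± 0.25), the protease-activated receptor gene F2rl1 (-1.94 ± 0.47 and -1.86 ± 0.53) and Kng1, which encodes kininogen (1.31 ± 0.20 and 1.29 ± 0.23). C1qa, a subunit of the C1q protein that recruits C1r and C1s, fell (-1.16 ± 0.24 and -1.45 ± 0.27) while the 2 protease genes rose. It was at 220.4, 197 and 139 CPM in eWAT Cont and 84.9, 87.5 and 75.9 in eWAT aKO. For Kng1 and these other genes, the Adipoq Cre of the aKO mice and the loss of Senp2 cannot be told apart. Cfd was at 50.8, 83.1 and 58.4 CPM in eWAT Cont and 89.4, 114 and 142 in eWAT aKO and did not pass (0.85 ± 0.31 and 0.66 ± 0.34; edgeR QL adjusted p = 0.0613 and 0.223).

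With siC/EBPb in Cont, 19 of the 41 fell and 1 rose in eWAT, and 17 and 2 in iWAT, where 14.9% and 11.8% of all tested genes did in eWAT and 14.0% and 10.3% in iWAT. The largest were falls of Serpinb2 (-3.91 ± 0.25 and -3.22 ± 0.25), of Itgam, a subunit of complement receptor 3 (-3.31 ± 0.21 and -2.93 ± 0.22), of Vsig4, a complement receptor of macrophages (-3.04 ± 0.41 and -3.97 ± 0.51), and of the ficolin Fcna (-2.92 ± 0.24 and -3.13 ± 0.28). In aKO cultures 25 fell and 4 rose in eWAT, and 24 and 5 in iWAT, where 19.1% and 16.6% of all tested genes did in eWAT and 17.7% and 13.6% in iWAT. Itgam (-5.07 ± 0.34 and -4.53 ± 0.34) and Fcna (-4.59 ± 0.34 and -4.56 ± 0.42) were among the largest falls. C1qa fell in all 4 siRNA comparisons, to 4.78, 13.7 and 12.7 CPM in eWAT aKO siC/EBPb.

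Between aKO and Cont with siC/EBPb, 3 of the 41 rose and 14 fell in eWAT, and 3 and 13 in iWAT, beside 3.90% and 6.87% of all tested genes in eWAT and 3.52% and 6.51% in iWAT. C1qa fell in both depots (-2.20 ± 0.31 and -2.11 ± 0.33). For the interaction 4 were positive and 5 negative in eWAT, and 4 and 2 in iWAT, beside 3.01% and 3.33% of all tested genes in eWAT and 1.32% and 2.19% in iWAT. The largest were Clec3b (-2.90 ± 0.38 and -3.0 ± 0.46), F2rl1 (2.33 ± 0.55 and 2.65 ± 0.61) and Serpinb2 (2.29 ± 0.46 and 2.01 ± 0.48).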

How the data were processed

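Poly(A) RNA of 24 libraries was sequenced, per the labels. The submitters' processing notes name cutadapt 2.7, TopHat2 2.1.1, HTSeq and the build GRCm38. The counting's strand setting is not stated in these sources. The deposited table held whole-number counts per gene. The authors' per-sample files held those counts divided by 1 constant per library and were not used. Symbols came from GENCODE M21, which named 53360 of 53465 identifiers.

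Genes were kept by filterByExpr (minimum count 10), which left 14785. Counts were scaled by TMM and fitted with edgeR 4.0.16 in R 4.3.3, with 1 mean per group, no block and the quasi-likelihood F test, and p-values were adjusted by the Benjamini-Hochberg method over all tested genes of a contrast. The fit was tested on simulated data. SE is the log2 fold change divided by the square root of F, which can be too small where a group holds few counts. The members and lists were chosen with earlier results of these data known. All members may be named, as may Cfd, C1qa and the 4 further cascade genes with the largest called change in a contrast, though not all of these are given and some are not reported here.

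The alternatives tried included size factors from DESeq2, fitting without the filter, a replicate block, limma 3.58.1 voom with sample weights, the DESeq2 1.42.0 Wald test, the groups of a contrast alone and each library left out in turn. A block pairing same-numbered libraries of the 2 depots was added after the data were seen. Deviations from group means, computed over 8159 well-counted genes, correlated between same-numbered eWAT and iWAT libraries in Cont siNS (r = 0.27, 0.425 and 0.312). These were taken as pairs for the depot comparison. The correlations were 0.748, 0.424 and 0.537 in aKO siC/EBPb and 0.0796, 0.235 and 0.16 in Cont siC/EBPb. In aKO siNS they were -0.528, -0.174 and 0.541. The depot comparison does not contrast these groups, but the blocked fit held all 24 libraries. It paired same-numbered libraries in these groups too, so they enter its estimate of the spread. What a number stands for is not in the labels.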

Additional observations from a re-analysis of the deposited data

Results flagged for a closer look

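The effect of siC/EBPb differed between aKO and Cont cultures for 8 members by the edgeR QL interaction test, at an adjusted p under 0.05. In eWAT and iWAT the interactions, in log2 units as the effect in aKO minus that in Cont, were -0.89 and -0.87 for C1ra, -0.85 and -0.84 for C1s1, and -1.92 and -1.88 for C3. They were -0.84 and -0.99 for C4b, -1.15 and -1.81 for C7, and -0.88 and -0.69 for Serping1. Plaur had 0.84 and 0.92, the only positive values among the called members. Cfb passed in eWAT with -3.13, on 0 to 15 counts a library, so the size of this value is uncertain. The target Cebpb itself had -0.74 and -0.90 and did not pass (edgeR QL adjusted p = 0.0562 and 0.0522). The part of this difference in knockdown was not tested. The summed macrophage and leukocyte markers were lowest in the same aKO siC/EBPb libraries (95.0 to 199 CPM in eWAT and 82.7 to 178 in iWAT), and 3 of 12 of these markers had a called negative interaction in eWAT and 0 in iWAT by edgeR QL. Their part in these results was not tested.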

How the results depend on the processing

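Of 175 calls of a member in a comparison, 127 held in every alternative, 48 were lost in at least 1, and 46 results gained a call in at least 1. With the groups of a contrast alone the members called numbered 7 in place of 12 in iWAT aKO against Cont with siNS, 4 in place of 7 for the iWAT interaction and 4 in place of 0 between depots. Of all tested genes 5.33% in place of 15.2%, 2.15% in place of 3.51% and 5.14% in place of 1.20% were then called. Without the filter the members called numbered 13 in place of 8 for the eWAT interaction and 5 in place of 0 between depots. Of all tested genes 4.19% in place of 6.34% and 1.80% in place of 1.20% were then called. Between depots voom and the depot replicate block each gave 3 members, with 5.79% and 0.967% of all tested genes. With 1 library left out the counts of members ranged from 9 to 16 in eWAT and from 9 to 16 in iWAT for aKO against Cont with siC/EBPb. They ranged from 5 to 10 for the eWAT interaction and from 0 to 3 between depots. The counts of 9, 9 and 5 came with 7.29%, 6.25% and 2.89% of all tested genes, in place of 10.8%, 10.0% and 6.34%. The 3 between depots came with 7.50% in place of 1.20%. In iWAT aKO against Cont with siNS, Vwf was 0.031 by DESeq2 in place of -0.50. There Pros1 ranged from -0.017 to 0.21 and Serpine2 from -0.056 to 0.19 over the left-out libraries, the lowest without iWAT aKO siNS replicate 3, and none was called in the main analysis. In no comparison of genotype or siRNA did all 3 same-numbered pairs deviate together, so they were not taken as pairs. With a replicate block over them the counts were 16 and 13 for aKO against Cont with siNS and 23 and 24 for siC/EBPb in Cont (eWAT and iWAT). Blocked counts equalled the unblocked ones in the other 8 comparisons, and Plaur lost its call in iWAT Cont (edgeR QL adjusted p = 0.0530). The motif share of member promoters was 18.2% with the loose and 0% with the strict motif, and the cause of these changes was not tested. DESeq2 gave no adjusted p for Cfb in the eWAT interaction. The shallow library limits low members in iWAT aKO siNS, and some of its marker sums differed from those of its group at high levels too.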
